A study of Solanum lycopersicum with 30 samples.

Results

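F3H and FLS are the symbols of flavanone 3-hydroxylase and flavonol synthase, enzymes of flavonoid synthesis, and their log2 ratios were examined on 30 2-colour cDNA arrays of tomato (Solanum lycopersicum) leaves. The members were every spot whose only gene symbol in the platform annotation was F3H or FLS, which gave 10 of the 32448 spots, 5 of the 815 clones that carried a single symbol, and 2 of the 430 symbols. F3H was represented by 1 clone (spots 155665 and 156509, gene identifier 102577463). FLS was represented by 4 clones (spots 137682 and 138526, 142452 and 144311, 142699 and 143543, and 151273 and 152117, all under gene identifier 102577717). Each clone is named below by its first spot, and each clone value is the mean of its 2 duplicate spots, or the measured spot where the other was empty. Both spots had a value on 24 of the 28 arrays with a value for F3H. For the FLS clones this held on 24 of 28 (137682), 19 of 24 (142452), 25 of 27 (142699) and 21 of 28 (151273).

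The genotypes were sun1-1, a mutant in the N background with enhanced susceptibility to tobacco mosaic virus (TMV), the resistant line with N, and the susceptible line n. Both sun1-1 and resistant plants therefore carried N, a resistance gene against TMV. Leaves were collected 3, 9 or 27 h after treatment, with 3 arrays for each sun1-1 group, 4 for each resistant group and 3 for each susceptible group. The plants were 28 to 35 days old, kept at 25 °C under 16 h of light and 8 h of dark, and each RNA sample came from 1 plant. Every array carried a Cy3-labelled sample of a plant that received sap with TMV and a Cy5-labelled sample of a mock-treated plant of the same genotype and time.

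F3H turns flavanones into dihydroflavonols, and FLS turns dihydroflavonols into flavonols, so the enzymes act at consecutive steps of the flavonol branch. Both belong to the family of 2-oxoglutarate-dependent dioxygenases, which need iron and 2-oxoglutarate. In tomato leaves flavonols are present mainly as glycosides such as rutin, and flavonoids are known for absorbing ultraviolet light, acting as antioxidants and accumulating in some responses to pathogens.

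Each value is a log2 ratio between the Cy3 and the Cy5 signal of a spot, as the authors deposited it. Neither labels nor files name the channel on top of the ratio, and the dyes were assigned the same way throughout. The signs are those of the files, and whether a positive one stands for more RNA after TMV or after mock treatment was not settled. Where a probe favours one dye, that bias adds to every ratio, but it cancels between genotypes. In leaf RNA, fewer cells that express a gene and less of its RNA per cell cannot be told apart. None of the 430 gene identifiers was found in the tomato gene table (0 matched). The symbol F3H occurs there under another identifier and the symbol FLS does not occur, so whether the clones detect tomato F3H and FLS was not tested, and functions given here are those of the symbols.

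An array gave values for 2173 to 9511 clones, with a median of 6979.5, and 65.0% of all spot values were empty. The SD of all log2 ratios on an array ran from 0.22 to 1.35. The widest array was sun1-1 3 h replicate 3, and the next was sun1-1 27 h replicate 1 with an SD of 0.687. Gene means and differences that either array changed by more than 1.5 times are given with and without it. Of the 435 pairs of arrays, 20 correlated below -0.3 across clones (range -0.571 to 0.554), although all arrays had the same dye orientation. Since the genotypes and times differ between arrays, this does not settle whether the ratios run the same way on every array, and all signed values below carry that limit. With the sign turned on all arrays, every mean below keeps its size and changes its sign, and every percentile is counted from the other end. The deposited values of sun1-1 27 h replicate 2 sat 1 row off, which showed in their correlation with the other arrays, a mean absolute r of 0.0120 in place and 0.174 when shifted back, and the shifted values were used.

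F3H, which forms dihydroflavonols, had ratios that were mostly above 0 at 3 h, near 0 on average at 9 h and highest at 27 h. At 3 h, a time that had no part in choosing the gene, it was positive on 8 of 10 arrays, where 11.9% of the features were positive on at least 80% of their arrays. The ratios were 0.42, -0.35 and 1.08 in sun1-1 (mean 0.39 ± 0.72, SD, n = 3), the last from a single spot. They were 0.50, 0.23, -0.24 and 0.07 in resistant leaves (mean 0.14 ± 0.31, SD, n = 4), the last again from a single spot. In susceptible leaves they were 0.14, 0.92 and 0.91 (mean 0.66 ± 0.44, SD, n = 3). Every susceptible array was positive, as were 19.2% of all features in that group, and the ranges of the 3 genotypes overlapped. The mean over the 3 genotypes was 0.39 (SE 0.180, 95% interval 0.02 to 0.76), with an unadjusted limma p of 0.0387 and an adjusted p of 0.275. Without sun1-1 3 h replicate 3 it was 0.28 (limma adjusted p = 0.511), and the sun1-1 mean was then 0.036. In that comparison 5 of 5357 features passed at an adjusted p of 0.05 (0.0933%), and F3H was not among them. An unadjusted p under 0.05 was reached by 892 of the 5357 features.

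In susceptible leaves at 3 h, F3H averaged 0.66 (95% interval -0.01 to 1.32) and limma gave an adjusted p of 0.933, where 0 of 7889 features passed (0%) and 415 had an unadjusted p under 0.05. With arrays weighted by quality the same value was 0.78 with a limma adjusted p of 0.0230, in a comparison where 493 of 7889 features then passed (6.25%). That was the 1 alternative, of 482 tested values of both genes, in which a member passed.

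At 9 h the F3H ratios averaged near 0, while single arrays ran from -0.92 to 0.85. Sun1-1 had 0.27 and 0.10 in replicates 2 and 3 (mean 0.19 ± 0.12, SD, n = 2), with no value in replicate 1. Resistant leaves had 0.85, -0.92 and 0.15 in replicates 1 to 3 (mean 0.029 ± 0.89, SD, n = 3), with no value in replicate 4. Susceptible leaves had -0.19, -0.33 and 0.03 (mean -0.16 ± 0.18, SD, n = 3). Both sun1-1 arrays lay above all 3 susceptible arrays, an order that 8.32% of the features showed. That share is over features with 2 or more arrays per group, and fewer arrays reach such an order more easily. The difference, sun1-1 minus susceptible, was 0.35 (95% interval -0.70 to 1.41, limma adjusted p = 0.987). The mean over genotypes was 0.018 (95% interval -0.40 to 0.44, limma adjusted p = 1.00), and F3H was positive on 5 of 8 arrays.

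At 27 h F3H had its highest ratios. The gene had been chosen by its mean over genotypes at that time in earlier results of these data, so these values are a description without a test. In sun1-1 at 27 h, F3H had log2 ratios of 2.16, 0.52 and 0.99 in replicates 1, 2 and 3, the last from a single measured spot. In resistant leaves at 27 h, it had -0.74, 0.43, 1.08 and 0.38 in replicates 1 to 4, and the negative value also came from a single measured spot. In susceptible leaves at 27 h, the ratios were -0.16, 0.74 and 0.95. All sun1-1 arrays were thus positive, while 1 array of each other genotype was negative and the ranges of the 3 genotypes overlapped. Over all features with a value on the 3 arrays, 15.7% were positive on every sun1-1 array at 27 h.

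The group means of F3H at 27 h were 1.22 ± 0.84 in sun1-1 (SD, n = 3), 0.29 ± 0.76 in resistant (SD, n = 4) and 0.51 ± 0.59 in susceptible leaves (SD, n = 3). Single replicates moved each of these means. The sun1-1 mean was 0.76 without replicate 1. The resistant mean was 0.63 without replicate 1 and 0.027 without replicate 3. The susceptible mean ran from 0.29 to 0.85 as single replicates were left out. F3H was positive on 8 of 10 arrays at 27 h, as it was at 3 h, a share of at least 80% that 4.88% of the features also reached at that time. The mean of the 3 genotype means was 0.68 with an SE of 0.180 from the limma fit, and 0.52 without sun1-1 27 h replicate 1. Between genotypes at 27 h, the log2 ratio of sun1-1 minus resistant was 0.93, and 0.47 without that array. Sun1-1 minus susceptible was 0.71, and 0.24 without that array. Resistant minus susceptible was -0.22, and its sign turned with array quality weights (0.39) and with both spots required (0.12).

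**Figure D1:**
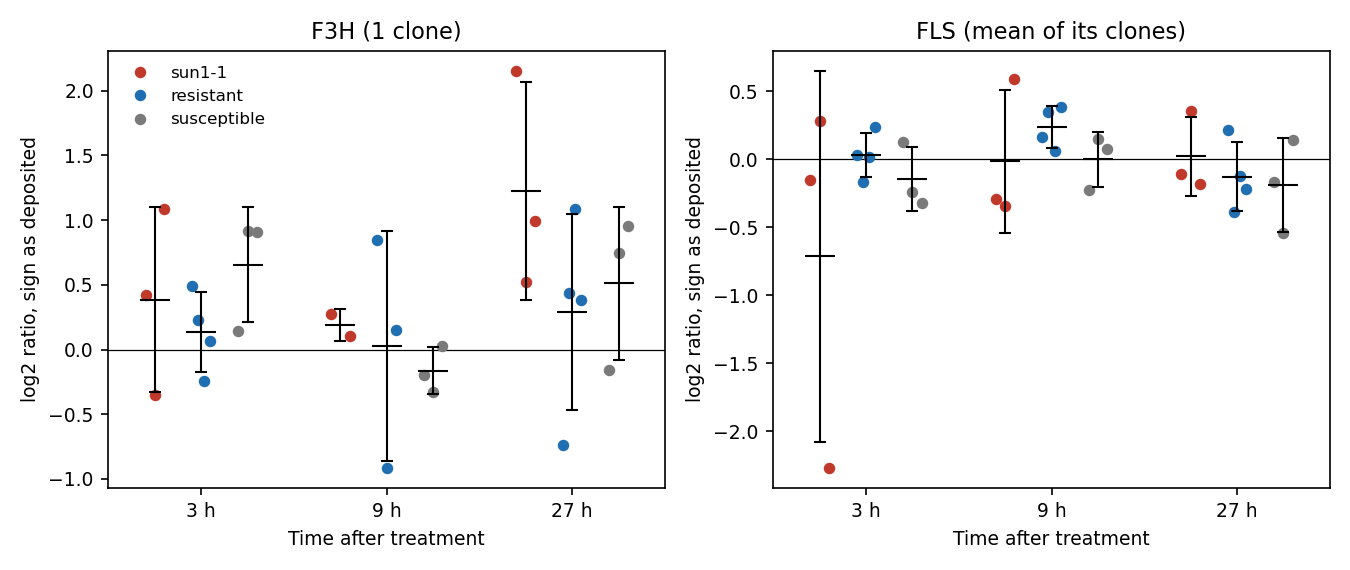
Log2 ratios of F3H (left) and FLS (right), as deposited, for each array (points) by time and genotype, with the group mean (dash) and SD (bars), on separate vertical scales. F3H in sun1-1 at 27 h lies between 0.52 and 2.16, and the lowest FLS value is sun1-1 3 h replicate 3 at -2.27.

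Of the 14 limma tests of F3H at 3 and 9 h, 0 passed at an adjusted p of 0.05 and 1 had an unadjusted p under 0.05. That 1 was the mean over genotypes at 3 h, where 892 of 5357 features had an unadjusted p under 0.05. Over all features, 0 passed (0%) in each of the other 13 comparisons. The differences between genotypes at 3 h were 0.25 for sun1-1 minus resistant (95% interval -0.64 to 1.14), -0.27 for sun1-1 minus susceptible (-1.22 to 0.68) and -0.52 for resistant minus susceptible (-1.40 to 0.37). Without sun1-1 3 h replicate 3, sun1-1 minus resistant turned to -0.10 and sun1-1 minus susceptible was -0.62. The intervals reach beyond 0.3 in both directions, so the arrays do not show that F3H had the same ratio in these genotypes. In the order of the 9 group means, from sun1-1 at 27 h (1.22) through susceptible at 3 h (0.66) and susceptible at 27 h (0.51) down to susceptible at 9 h (-0.16), every neighbouring pair of groups differed by less than the larger of their SDs and overlapped in range.

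The rank of F3H among the clones of the same array does not depend on how wide the array is. F3H was at or above the 95th percentile of its array on 4 of 10 arrays at 3 h, 1 of 8 at 9 h and 6 of 10 at 27 h. Its median percentile was 75.1 at 3 h, 57.5 at 9 h and 96.0 at 27 h. The 27 h ranks are a description only, since the mean over genotypes at that time had chosen F3H. On sun1-1 3 h replicate 3, the widest array, its ratio of 1.08 was at the 80.7th percentile only, whereas 0.42 in replicate 1 of that group was at the 97.5th. On sun1-1 27 h, the 3 arrays placed F3H at the 99.3rd, 95.2nd and 99.4th percentile in replicates 1, 2 and 3. At the other end, F3H was at or below the 5th percentile on 2 arrays, resistant 9 h replicate 2 (-0.92) and resistant 27 h replicate 1 (-0.74).

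**Figure D2:**
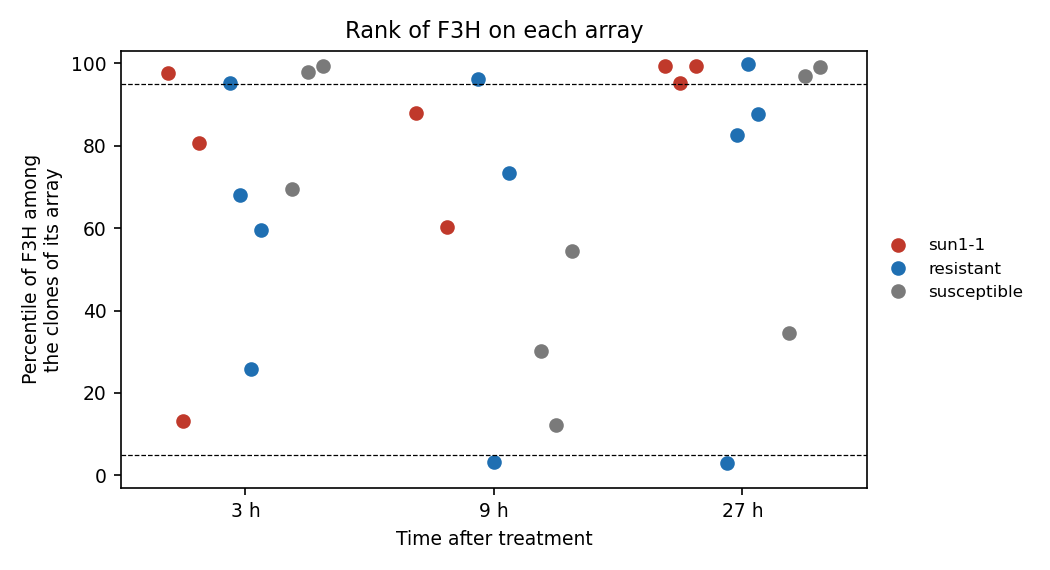
Percentile of the F3H log2 ratio among all clones with a value on the same array (vertical axis), for each array by time and genotype, with dashed lines at the 5th and 95th percentile. At or above the 95th percentile lie 4 of 10 arrays at 3 h, 1 of 8 at 9 h and 6 of 10 at 27 h. F3H had been chosen by its mean over genotypes at 27 h.

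FLS forms flavonols from the products of F3H, and its gene value is the mean of those of its clones that had a value on an array. The clones behind it thus differ between arrays. At 3 h the ratios were -0.15, 0.28 and -2.27 in sun1-1 (mean -0.71 ± 1.37, SD, n = 3). They were 0.03, -0.16, 0.02 and 0.24 in resistant leaves (mean 0.03 ± 0.16, SD, n = 4). In susceptible leaves they were 0.13, -0.24 and -0.32 (mean -0.14 ± 0.24, SD, n = 3). The low sun1-1 mean came from replicate 3, the widest array, on which 2 of the 4 clones had a value. Its limma adjusted p was 0.316 (unadjusted 0.0137), and without that array the mean was 0.07. Sun1-1 minus resistant at 3 h was -0.74 (95% interval -1.48 to -0.01, limma adjusted p = 0.791), and 0.03 without that array. Sun1-1 minus susceptible was -0.57 (-1.35 to 0.21), and 0.21 without it.

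FLS had been chosen by the 9 h values of 1 of its clones, so its values at that time are given without a test. FLS had -0.29, -0.34 and 0.59 in sun1-1 (mean -0.013 ± 0.53, SD, n = 3). It had 0.17, 0.35, 0.06 and 0.38 in resistant leaves (mean 0.24 ± 0.15, SD, n = 4), with 3 clones behind the 0.35 and 2 behind the 0.38. Susceptible leaves had -0.23, 0.15 and 0.08 (mean -0.00079 ± 0.20, SD, n = 3). All 4 resistant arrays were positive, as were 5.34% of all features with a value on those 4 arrays, but their range lay within that of sun1-1.

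At 27 h FLS had -0.10, 0.35 and -0.18 in sun1-1 (mean 0.024 ± 0.29, SD, n = 3, and 0.087 without replicate 1). Resistant leaves had 0.22, -0.39, -0.12 and -0.22 (mean -0.13 ± 0.25, SD, n = 4). The 0.35 of sun1-1 replicate 2 and the -0.12 of resistant replicate 3 rested on 2 clones each. On that sun1-1 array clones 137682 and 142699 had no value. Susceptible leaves had -0.16, -0.54 and 0.14 (mean -0.19 ± 0.34, SD, n = 3). The groups overlapped and each held both signs. Of the 14 limma tests of FLS at 3 and 27 h, 0 passed at an adjusted p of 0.05 and 2 had an unadjusted p under 0.05, both resting on sun1-1 3 h replicate 3. They were sun1-1 at 3 h and sun1-1 minus resistant at 3 h. There 723 of 6775 and 338 of 5404 features had an unadjusted p under 0.05. In the 27 h comparisons 0 of 5327 to 7390 features passed (0%). In the order of the 9 group means of FLS, the gap of 0.21 between resistant at 9 h and resistant at 3 h was larger than the SD of either group, although their ranges overlapped, and every other neighbouring pair differed by less than the larger of their SDs.

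The mean of FLS joins clones that did not move together. Clone 151273 ranged from -4.32 to 2.50 over its 28 arrays, beyond 2-fold on 8 of them. Clone 137682 ranged from -1.03 to 0.75 over 28 arrays and was beyond 2-fold on 1. Clones 142452 (-0.38 to 0.65, 24 arrays) and 142699 (-0.56 to 0.83, 27 arrays) stayed within 2-fold on every array with a value. On an array the clones of FLS lay a median of 0.88 apart, and more than 1 apart on 11 of 30 arrays. Of the 21 arrays with all 4 clones, 4 had them of the same sign, and 151273 was the clone farthest from their median on 11.

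Clone 151273 had ratios of -0.29, 0.44 and -4.32 in sun1-1 at 3 h, where 0.44 and -4.32 each came from a single spot. Resistant leaves at 3 h had 0.04, -0.27 and -0.045 in replicates 1, 3 and 4, and susceptible leaves had 0.17, -1.03 and -1.30. At 9 h it had -0.26, -0.69 and 2.50 in sun1-1. The clone stood at 0.52, 0.54 and 0.57 in resistant replicates 1, 3 and 4 at 9 h, and at -0.48, 0.62 and -0.082 in susceptible leaves. At 27 h sun1-1 had 0.0015, 0.49 and -0.082. Resistant leaves at 27 h had 1.08, -0.82, 0.31 and -0.82, and susceptible leaves had -1.12, -1.60 and 1.13. Values beyond 2-fold thus occurred with both signs within the susceptible group at 27 h, and the 3 measured resistant arrays at 9 h were the narrowest group (0.54 ± 0.03, SD, n = 3). A single spot gave each of the values 1.08 and -1.60 at 27 h, -0.69 and 0.62 at 9 h, and -0.27 at 3 h. The clone was at or above the 95th percentile of its array on 6 arrays and at or below the 5th on 7.

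Clone 137682, by whose 9 h values FLS was chosen, had -1.03, -0.15 and -0.53 there (mean -0.57 ± 0.44, SD, n = 3). Resistant leaves at 9 h had -0.44, 0.75 and -0.38, with no value in replicate 4. Susceptible leaves at 9 h had 0.13, 0.43 and 0.20 (mean 0.25 ± 0.16, SD, n = 3), so all sun1-1 arrays were negative and all susceptible arrays positive. In these groups 8.35% of the features were negative on every sun1-1 array and 17.9% were positive on every susceptible array. Sun1-1 lay wholly below susceptible at 9 h for 7.73% of the features. At 3 h, which had no part in the choice, the clone was negative on all sun1-1 arrays too, with -0.26, -0.23 and -0.22, as were 10.8% of the features. It had 0.25, -0.53, 0.33 and 0.73 in resistant leaves, and -0.16, -0.031 and 0.26 in susceptible leaves at 3 h. The 3 h difference of this clone was -0.43 for sun1-1 minus resistant (95% interval -1.02 to 0.17, limma adjusted p = 0.868). For sun1-1 minus susceptible it was -0.26 (-0.89 to 0.37, limma adjusted p = 0.998), and the 3 sun1-1 arrays lay below all 3 susceptible arrays, an order that 10.1% of the features showed.

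Clones 142452 and 142699 had both signs in sun1-1 at 9 h, where 142452 had 0.11, -0.29 and 0.40, and 142699 had 0.017, -0.25 and 0.0095. At 27 h clone 142699 had -0.56 and -0.42 in sun1-1 replicates 1 and 3, below its 3 resistant arrays (-0.015, -0.045 and 0.10) and its 3 susceptible arrays (0.40, -0.10 and -0.40). Over all features, sun1-1 lay wholly below resistant at 27 h for 5.4% and wholly below susceptible for 9.96%. Those shares are over features with 2 or more arrays per group, and fewer arrays reach such an order more easily. The difference was -0.50 for sun1-1 minus resistant (95% interval -1.01 to -0.0036, limma adjusted p = 0.912) and -0.46 for sun1-1 minus susceptible (-0.96 to 0.04, limma adjusted p = 0.464). Over the 4 FLS clones fitted singly, 0 of 56 limma tests at 3 and 27 h passed at an adjusted p of 0.05. Over all clones, 4 of 5635 passed for the mean over genotypes at 3 h (0.071%), 2 of 5603 for that at 27 h (0.0357%) and 0 in each other comparison (0%). For the FLS clones the lowest adjusted p was 0.305, for clone 151273 in the mean at 3 h.

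**Figure D3:**
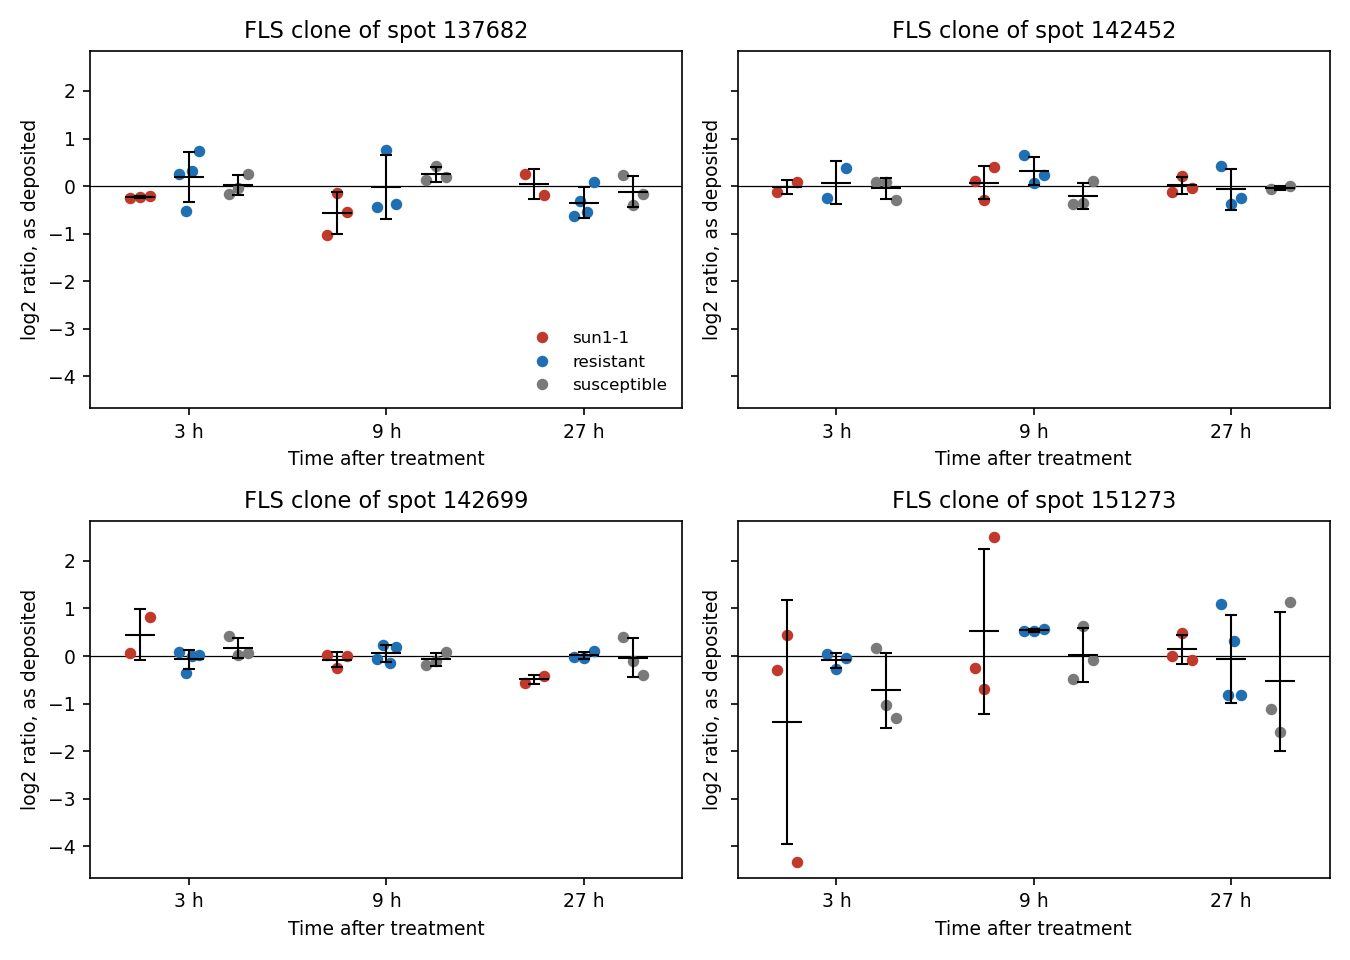
Log2 ratios, as deposited, of each of the 4 FLS clones on each array (points) by time and genotype, with the group mean (dash) and SD (bars), on 1 vertical scale. Clone 151273 spans -4.32 to 2.50, while clones 142452 and 142699 lie between -0.56 and 0.83.

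The duplicate spots show how much of this spread is spot error. The SD of 1 spot, computed from the differences between duplicate spots, was 0.096 for FLS clone 151273, 0.15 for F3H, 0.13 for 137682, 0.17 for 142452 and 0.23 for 142699. The SD between arrays of the same genotype and time was 1.22 for 151273, 0.62 for F3H, 0.39 for 137682, 0.30 for 142452 and 0.24 for 142699. The spread between arrays was thus 12.6 times the error of 1 spot for 151273 and 4.17 times for F3H, and a clone value with both spots has a smaller error than 1 spot. The spread of 151273 includes sun1-1 at 3 h (SD 2.56), with -4.32 in replicate 3. That value came from a single spot on the widest array, so it has no part in the spot error. For 142699 the ratio was 1.06, but its spot error rested on susceptible 27 h replicate 1, where the spots read 1.09 and -0.28. Without that pair the error was 0.12 and the ratio 2.08. Across arrays the duplicate spots of 151273 correlated at r = 0.987 (21 arrays with both spots) and those of F3H at r = 0.948 (24 arrays), against 0.905 for 137682 (24 arrays), 0.672 for 142452 (19 arrays) and 0.548 for 142699 (25 arrays). The spots of 142699 had opposite signs on 8 arrays.

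Among the 5622 clones with a value on at least 20 arrays, the median SD between arrays of a group was 0.354. FLS clone 151273 was at the 99.8th percentile of that SD and F3H at the 91.5th. The other FLS clones were at the 59.9th (137682), 31.1st (142452) and 12.9th (142699) percentile. F3H, 151273 and 137682 had a value on the widest array, sun1-1 3 h replicate 3, where 2635 clones were measured. Clones 142452 and 142699 had none there, and the percentiles were not recomputed without that array. F3H was beyond 2-fold on 3 arrays, and the SD of its groups reached 0.89 (resistant at 9 h).

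**Figure D4:**
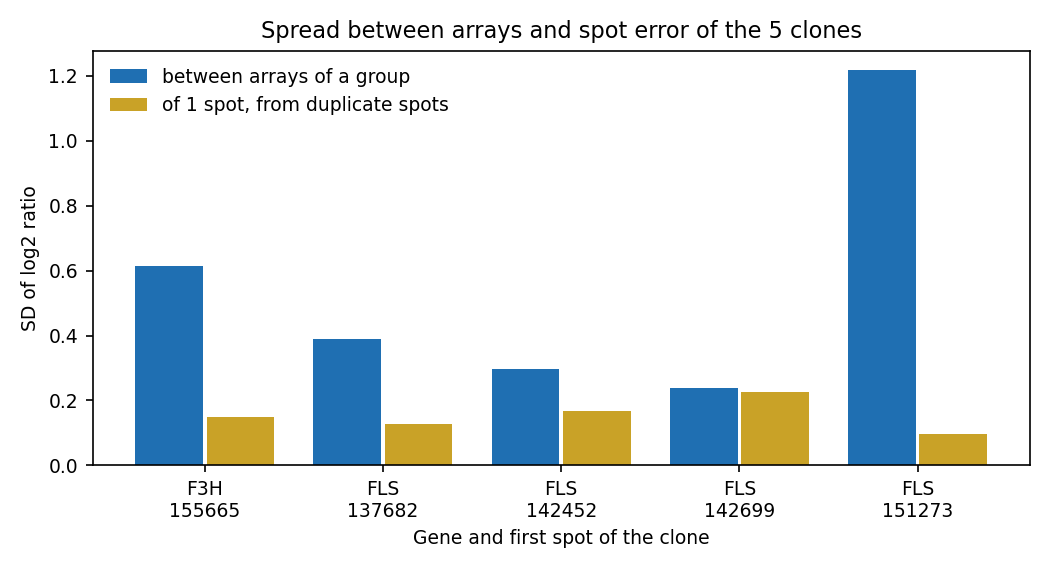
SD of the log2 ratio between arrays of the same genotype and time (blue) and SD of a single spot from the duplicate spots (yellow) for the F3H clone and the 4 FLS clones. The 2 bars differ most for 151273 (1.22 and 0.096) and least for 142699 (0.24 and 0.23, of which the spot SD is 0.12 without 1 pair of spots).

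Clones with the same symbol mostly agreed elsewhere on the array, and most pairs of FLS clones did not. Over 581 pairs of clones of 139 other symbols with at least 20 shared arrays, the median Pearson r was 0.777 (quartiles 0.486 and 0.885), and 8.09% were below 0. The 6 pairs of FLS clones had a median of 0.018, and 3 of the 6 were below 0. Low agreement was not particular to FLS, as the pairs of LOC102597669 had r of 0.075, 0.077 and -0.13. These correlations share arrays and depth, and the pairs of 1 symbol share clones, so they are a description. They also include the 9 h values by which FLS was chosen, so they carry no test. Clones 137682 and 142452 had r = -0.52 over 23 arrays (-0.69 without the 2 arrays farthest from the median, -0.64 after group means were removed), and 1 of the 581 other pairs was lower. The 2 farthest arrays were judged on the first-named clone of each pair and not on the second, so extremes of the second clone were not looked for. Clones 142452 and 151273 had r = 0.58 over 22 arrays (0.57 without the 2 farthest, 0.62 within groups). The other 4 pairs had r of -0.15 to 0.11. Duplicate spots of 142452 and of 142699 themselves correlated at only 0.672 and 0.548, which limits the r of these clones with others. Over the 3 and 27 h arrays alone, with values permuted within genotype and time, clones 137682 and 142452 had Pearson r = -0.66 and Spearman rho = -0.47 (14 arrays, exact two-sided permutation p = 0.0764 and 0.181, adjusted 0.210 and 0.496 over 11 relations), and r = -0.57 without the 2 farthest arrays. Clones 142452 and 151273 had r = 0.61 and rho = 0.60 there (14 arrays, exact permutation p = 0.00926 and 0.0116, adjusted 0.102 and 0.127), and r = 0.44 without the 2 farthest arrays. After adjustment 0 of the 11 relations passed 0.05.

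**Figure D5:**
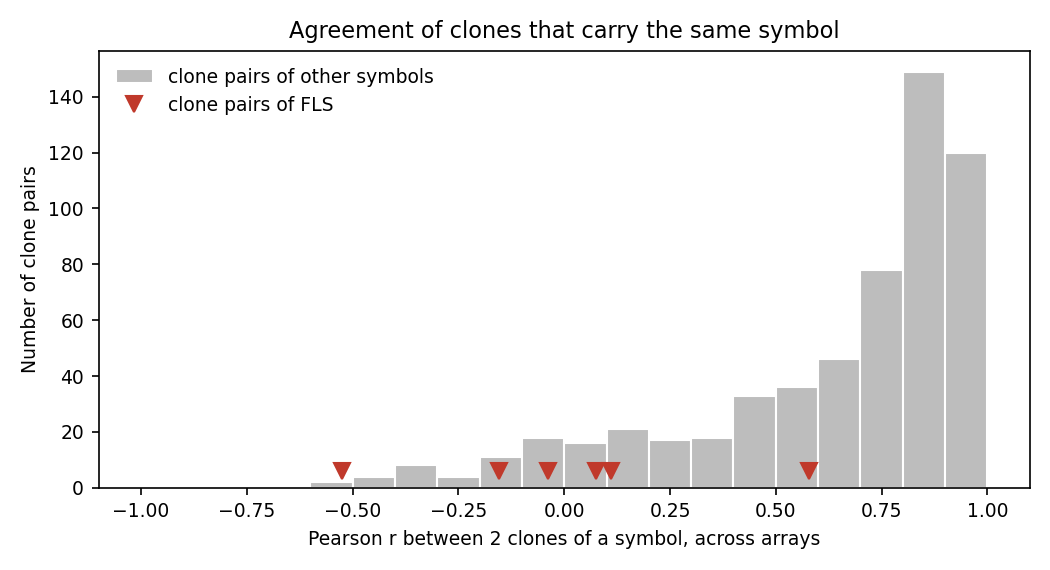
Number of clone pairs (vertical axis) by the Pearson r across arrays of 2 clones that carry the same symbol, for 581 pairs of 139 other symbols (grey bars), with the 6 pairs of FLS clones as red triangles set at an arbitrary height. The grey pairs have a median of 0.777, and the FLS pairs lie between -0.52 and 0.58.

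F3H and FLS, whose enzymes act in sequence, had the same sign on 11 of 28 arrays. Their gene values had r = -0.39 over those arrays (-0.44 without the 2 farthest arrays, -0.49 within groups and -0.40 without sun1-1 3 h replicate 3), given without a test because the 9 and 27 h values had chosen the genes. For relations with F3H, the 2 farthest arrays were those farthest from the F3H median, and extremes of FLS were not looked for. At 3 h alone, permuted within genotype, they had Pearson r = -0.68 and Spearman rho = -0.84 over 10 arrays (exact two-sided permutation p = 0.0278 and 0.0266, adjusted 0.153 and 0.146 over 11 relations). That r was -0.73 without the 2 farthest arrays and -0.81 without sun1-1 3 h replicate 3. The relation did not pass the adjustment. Of the single FLS clones, 142699 had the lowest r with F3H over all arrays, -0.55 over 25 arrays (-0.40 without the 2 farthest). At 3 h it had r = -0.42 and rho = -0.17 (9 arrays, exact permutation p = 0.167 and 0.576, adjusted 0.367 and 0.792), and r = -0.50 without the 2 farthest. The remaining 3 clones had r of -0.28 to -0.12 with F3H over all arrays. At 3 h their r ran from -0.74 for 151273 to -0.098 for 137682, with adjusted exact permutation p of 0.204 or more.

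The genes whose ratios were most like those of F3H, among 329 with at least 20 shared arrays, were SKT3 (r = 0.60, 23 arrays), LOC102577539 (0.56, 23 arrays) and LOC102577612 (0.54, 27 arrays). The least like it was LOC102577663 (r = -0.57, 28 arrays). For FLS, among 334 genes, they were LOC102577804 (r = 0.84, 29 arrays), LOC102577554 (0.79, 30 arrays) and PSBR (0.76, 30 arrays), the symbol of a small subunit of photosystem II. The least like FLS was KST1 (r = -0.87, 24 arrays), a potassium channel known from potato guard cells. Sun1-1 3 h replicate 3 decided part of this order. Without it the r with FLS was 0.63 for LOC102577804, 0.07 for LOC102577554, 0.73 for PSBR and -0.46 for KST1. The likeness to PSBR was that of clone 151273, with r = 0.84 over 28 arrays (0.78 without that array), whereas PSBR correlated at 0.13 with 137682, 0.53 with 142452 and -0.08 with 142699. The values for single clones were added after the gene values had been seen.

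Few other genes of the pathway could be examined by symbol. Of 34 symbols listed for flavonoid and phenylpropanoid synthesis, 2 occurred among the single-symbol clones, F3H and FLS themselves, so the steps before and after them (such as chalcone synthase and dihydroflavonol reductase) were not analysed here. Of 8 symbols of related dioxygenases, 3 occurred, the third being GA2OX1, which inactivates gibberellins. GA2OX1 had ratios and differences of -0.24 to 0.35 in 13 comparisons, of which 0 passed (lowest limma adjusted p 0.725). Of 10 symbols for aromatic amino acid supply, 0 occurred. SHKA, the symbol of a DAHP synthase at the entry of the shikimate pathway, was added after the symbols were read and before its values were. It had values of -0.47 to 0.32 in 21 comparisons, of which 0 passed (lowest limma adjusted p 0.460). Of 10 leaf marker symbols 1 occurred, PSBR, and since an array gives ratios of leaf samples and no levels, the tissue could not be checked from them.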

How the data were processed

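The authors deposited log2 ratios of the channels of each array, centred on about 0. Per the submitters' processing notes limma was used, with no version. The scanner, background correction, normalization, filter behind empty values and numerator channel are not given in the sources used here. Base 2 was inferred, since all 5154 values at or below -1 equal the log2 of a 2-decimal ratio to within 0.002. Duplicate spots were averaged by the fixed layout (all 905 annotated pairs followed it), and the clones of a symbol were averaged. Where a spot or a clone was empty, the mean was over those with a value. With R 4.3.3 and limma 3.58.1, lmFit and eBayes were fitted to all features with 9 group means, and p values were adjusted by Benjamini-Hochberg over every feature that had 2 or more arrays per group compared. The script was tested on simulated data. Each correlation was tested only over arrays of times that had not chosen a gene in it, by exact permutation within genotype and time. These were 3 h for relations with F3H, and 3 and 27 h for pairs of FLS clones. The restriction was added after the data were seen. Arrays were grouped by their titles, and for resistant replicate 4 at 9 h and 27 h the protocol of the TMV channel names another time (3 h and 9 h). Replicates are plants, and whether the repeats were independent experiments is not stated for each array.

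The members, lists and tests were chosen with earlier results of these data known. F3H was tested at 3 and 9 h and FLS at 3 and 27 h, because values at the remaining time had chosen them. The genes named are F3H, FLS and their clones, every gene of the lists, and for each member the 3 most like genes and the least like one. Numbers of replicates were not used to pair the arrays in the main fit. Deviations of same-numbered arrays from their group means correlated at a mean r of -0.0204, against 0.00667 for other arrays. The 111 same-numbered pairs ran from -0.527 to 0.580, with 30 of them over 0.1. Correlations of opposite sign cancel in such a mean, so it cannot decide whether the arrays were paired. No sequence is shown, since none was among the files used here. The number of arrays limits the precision of every value.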

Additional observations from a re-analysis of the deposited data

Results flagged for a closer look

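FLS clone 137682 had opposite signs in 2 genotypes at 9 h: all 3 sun1-1 arrays were negative (mean -0.57) and all 3 susceptible arrays were positive (mean 0.25). Over all features, sun1-1 lay wholly below susceptible at 9 h for 7.73%. The difference, sun1-1 minus susceptible, was -0.83 on the log2 scale and was not tested, because this value had a part in choosing the gene. The other 3 clones of FLS had both signs in each of these groups at 9 h. In the 10 groups of 4 resistant values examined for F3H, FLS and their clones, no array stood apart from the rest by Dixon's criterion. Groups with fewer values, among them all sun1-1 and susceptible groups, were not examined, so extremes there could not be flagged.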

How the results depend on the processing

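For both genes, 42 values were recomputed in 727 alternatives, and 1 of the 482 tested alternatives passed the threshold: F3H in susceptible leaves at 3 h with array quality weights (0.78, limma adjusted p = 0.0230, range 0.0230 to 1.00 over its alternatives). Those weights also raised the calls over all features, to 534 of 5357 for the mean at 3 h against 5 without them, and in all 21 comparisons from 0 to 534. With the weights, FLS in sun1-1 minus susceptible at 3 h was 0.17, and F3H in sun1-1 minus resistant at 27 h was 0.010. The values below turned to the opposite sign or moved by more than 1 SD, and the cause was not tested. F3H in resistant minus susceptible at 27 h, -0.22, turned to 0.39 with the weights and 0.12 with both spots required. Of the FLS values at 9 h that lay near 0, the mean turned to -0.025 without clone 151273, sun1-1 to 0.025 and susceptible to 0.094 with both spots required, and susceptible to 0.038 with scaled arrays, 0.051 with the weights and 0.028 with the replicate block, which turned sun1-1 to 0.015.

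With clone 137682 alone, FLS was 0.024 in susceptible leaves at 3 h, -0.83 for sun1-1 minus susceptible at 9 h, -0.28 for resistant minus susceptible at 9 h and -0.23 at 27 h. With clone 142452 alone, the 3 h mean was 0.0034, sun1-1 minus susceptible at 3 h was 0.023, and resistant minus susceptible was 0.52 at 9 h and -0.029 at 27 h. With clone 142699 alone, the 3 h values were 0.18 for the mean, 0.45 in sun1-1, -0.064 in resistant, 0.16 in susceptible, 0.51 for sun1-1 minus resistant, 0.28 for sun1-1 minus susceptible and -0.23 for resistant minus susceptible. At 27 h they were -0.49 in sun1-1, 0.014 in resistant, -0.50 for sun1-1 minus resistant and -0.46 for sun1-1 minus susceptible. With clone 151273 alone, FLS was -0.09 in resistant leaves at 3 h, and at 9 h 0.50 for sun1-1 minus susceptible and 0.52 for resistant minus susceptible. Without clone 151273, the one of widest spread, an alternative chosen after seeing the data, the 3 h values were 0.040 for the mean and 0.049 in susceptible leaves. At 27 h they were -0.044 in sun1-1, -0.023 for sun1-1 minus susceptible and -0.20 for resistant minus susceptible. With the median of the clones, FLS at 3 h was -0.069 in resistant, 0.0016 in susceptible and -0.070 for resistant minus susceptible, which was -0.045 at 27 h. With both spots required, F3H in sun1-1 minus resistant at 3 h was -0.12. FLS at 3 h was then 0.039 in sun1-1, -0.024 in resistant, 0.063 for sun1-1 minus resistant and 0.18 for sun1-1 minus susceptible, and at 27 h -0.017 in sun1-1 and -0.13 for resistant minus susceptible. With sun1-1 27 h replicate 2 as deposited, FLS at 27 h was -0.14 in sun1-1 and -0.012 for sun1-1 minus resistant.

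Leaving out single replicates gave these ranges. For F3H, sun1-1 minus resistant ran from -0.23 to 0.65 at 3 h and from 0.12 to 1.33 at 27 h. Sun1-1 minus susceptible ran from -0.62 to 0.23 at 3 h and from -0.092 (without replicate 1) to 1.18 at 27 h. At 9 h the mean of F3H ran from -0.11 to 0.018, resistant from -0.38 to 0.50 and resistant minus susceptible from -0.23 to 0.58. At 27 h sun1-1 ran from 0.76 to 1.57, resistant from 0.027 (without replicate 3) to 0.63 (without replicate 1) and susceptible from 0.29 to 0.85. For FLS at 3 h, the mean ran from -0.41 to 0.015, sun1-1 from -1.21 to 0.065, resistant from -0.038 to 0.096, sun1-1 minus resistant from -1.31 to 0.035 and sun1-1 minus susceptible from -1.12 to 0.21. At 9 h the mean ran from -0.019 to 0.17, sun1-1 from -0.32 to 0.15, susceptible from -0.076 to 0.11, sun1-1 minus resistant from -0.62 to -0.052 and sun1-1 minus susceptible from -0.28 to 0.23. At 27 h sun1-1 ran from -0.14 to 0.13, sun1-1 minus resistant from -0.10 to 0.33, sun1-1 minus susceptible from -0.13 to 0.48 and resistant minus susceptible from -0.040 to 0.22.

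With the replicate number as a block, no call of either gene changed, and the 3 h mean was 0.40 for F3H and -0.26 for FLS. Of 30 arrays, 8 correlated best with an array of their own number. Centring each array on its median changed no sign and no call of either gene. The alternative that scales arrays to 1 spread used limma's normalizeMedianAbsValues, since the planned function gave no values for log ratios.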
